A study of Marchantia polymorpha with 18 samples.

Results

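The genes of the male V chromosome of the liverwort Marchantia polymorpha are described here in wounded and unwounded plants. They are the rows of the deposited table whose identifier begins with MpVg and whose level reached 1 CPM (read counts scaled to library size) in at least 3 of the 18 libraries, which were 37 of 207 V rows listed and 37 of the 13220 genes of all chromosomes that passed the same filter. The 6 groups were Mpdes6fad5 wounded and mock, Mpcoi1 wounded and mock, and Tak-1 wounded and mock, with 3 biological replicates each. Tak-1 is the male wild-type accession Takaragaike-1, Mpcoi1 a mutant of the jasmonate receptor gene, and Mpdes6fad5 a double mutant of fatty acid desaturase genes. The labels state neither the alleles and lines nor the sex of the mutants. All plants grew for 3 weeks on agar, each replicate pooled 6 to 8 plants, and the wounds were made with tweezers on what the labels call leaflets, with apical fragments taken for RNA. The treatment label gives 2 hours and the protocol gives freezing at 90 min, and both are stated here because they differ.

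Marchantia plants are haploid for most of their life, and their sex is set by a pair of chromosomes, U in females and V in males. The U chromosome carries the feminizing transcription factor gene MpBPCU, which is dominant, and plants that have only a V chromosome develop as males. Genes of the V chromosome fall broadly into those with a partner on the U chromosome, many of which serve basic cell functions in the vegetative body, and male-specific ones, many of which act in the antheridia and sperm. None of the 207 V identifiers had an entry in the reference gene table, which describes a female assembly with 63 U genes, so the V genes are called by their identifiers and no function is given to any of them. The deposited table held 0 rows with a U chromosome identifier.

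Between 19382332 and 26303510 reads fell in genes per library. A count of 0 therefore allows a level of up to 0.107 to 0.158 CPM (3 reads), counting error only. Read counts are from the deposited values, from which whole reads were recovered. The targeted gene MpCOI1 (Mp2g26590) stood at 23.9 ± 3.20 and 25.1 ± 1.76 CPM in wounded and mock Mpcoi1, against 69.2 ± 5.08 and 87.6 ± 3.41 CPM in wounded and mock Tak-1 (SD, n = 3). The targeted gene MpDES6 (Mp6g17330) stood at 30.6 ± 2.80 and 46.3 ± 2.50 CPM in wounded and mock Mpdes6fad5, against 40.9 ± 5.87 and 68.4 ± 7.42 CPM in wounded and mock Tak-1. MpFAD5 (Mp3g10660) stood at 294 ± 9.82 and 285 ± 28.7 CPM in wounded and mock Mpdes6fad5, against 542 ± 56.0 and 467 ± 38.5 CPM in wounded and mock Tak-1. All 3 genes still gave reads in the mutants that carry their lesion, and whether the reads lie in the altered part was not tested. The jasmonate marker MpJAZ (Mp6g06230) averaged 119.7 ± 2.40, 25.8 ± 1.40 and 174 ± 18.7 CPM in wounded Mpdes6fad5, Mpcoi1 and Tak-1, against 18.8 ± 1.22, 17.3 ± 1.29 and 27.6 ± 3.52 CPM in their mock plants. The photosynthesis gene MpRBCS (Mp4g09890) stood at 108.9 to 271 CPM in all libraries. Of 6 markers of antheridia and sperm with a row, 4 passed the filter; MpBNB (Mp3g23300), which starts germ cell formation, had no read in any library, and the protamine gene MpPRM (Mp3g14390) stayed at or under 0.0890 CPM. Their summed level lay higher in wounded libraries of each genotype, without overlap, at 19.5 to 22.9, 14.5 to 19.7 and 11.9 to 17.4 CPM in wounded Mpdes6fad5, Mpcoi1 and Tak-1, against 11.8 to 13.1, 11.3 to 11.9 and 10.6 to 11.8 CPM in their mock plants. The members did not move alike: MpDUO1 (Mp1g13010) averaged 4.69, 4.57 and 4.07 CPM in the 3 wounded groups, against 0.709, 0.814 and 0.673 CPM in the mock groups, while MpGEX2 (Mp4g06790) averaged 5.94, 2.86 and 2.39 CPM, against 4.17, 3.01 and 4.01 CPM. Their part in the results on V genes was not tested.

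Most V rows had no counted read in this tissue, and most of those that passed the filter were detected in every library. Of the 207 V rows, 138 (66.7%) had no read in any of the 18 libraries, against 12.5% of the 20367 other rows. Among those, the 277 rows whose identifier has z in place of a chromosome number also had a high share without a read, at 52.4%. A further 32 rows had reads but fell below the filter, with 1122 reads in all over 18 libraries and no value above 1.06 CPM. Of the 53 V rows whose identifier ends in a letter, 0 were among the 37 and 44 had no read. The treatment of reads shared between near-identical genes is not stated, so a row without a read may not be a silent gene. The filter was passed by 17.9% of V rows and by 64.7% of the others, among them 13% of the z rows. Of the 37 that passed, 30 reached 1 CPM in every library, and reads of V genes were present in every pool of all 3 genotypes. The other 7 did so in only some libraries, and 3 of them, MpVg00020, MpVg00590 and MpVg00835, reached the filter only with the help of Mpdes6fad5 libraries. Their excess in Mpdes6fad5 was thus favoured by the filter, and for MpVg00590 fixed by it, and is described below without a test. MpVg00590 reached 1 CPM in the 3 mock Mpdes6fad5 libraries and in no other, so the filter also fixed that it was lower in wounded than in mock Mpdes6fad5. Just inside the filter, MpVg00590 reached 1 CPM in 3 libraries and averaged 0.568 CPM over all 18, and just outside it MpVg01090 and MpVg01095 reached 1 CPM in 1 library each and averaged 0.559 and 0.647 CPM.

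**Figure D1:**
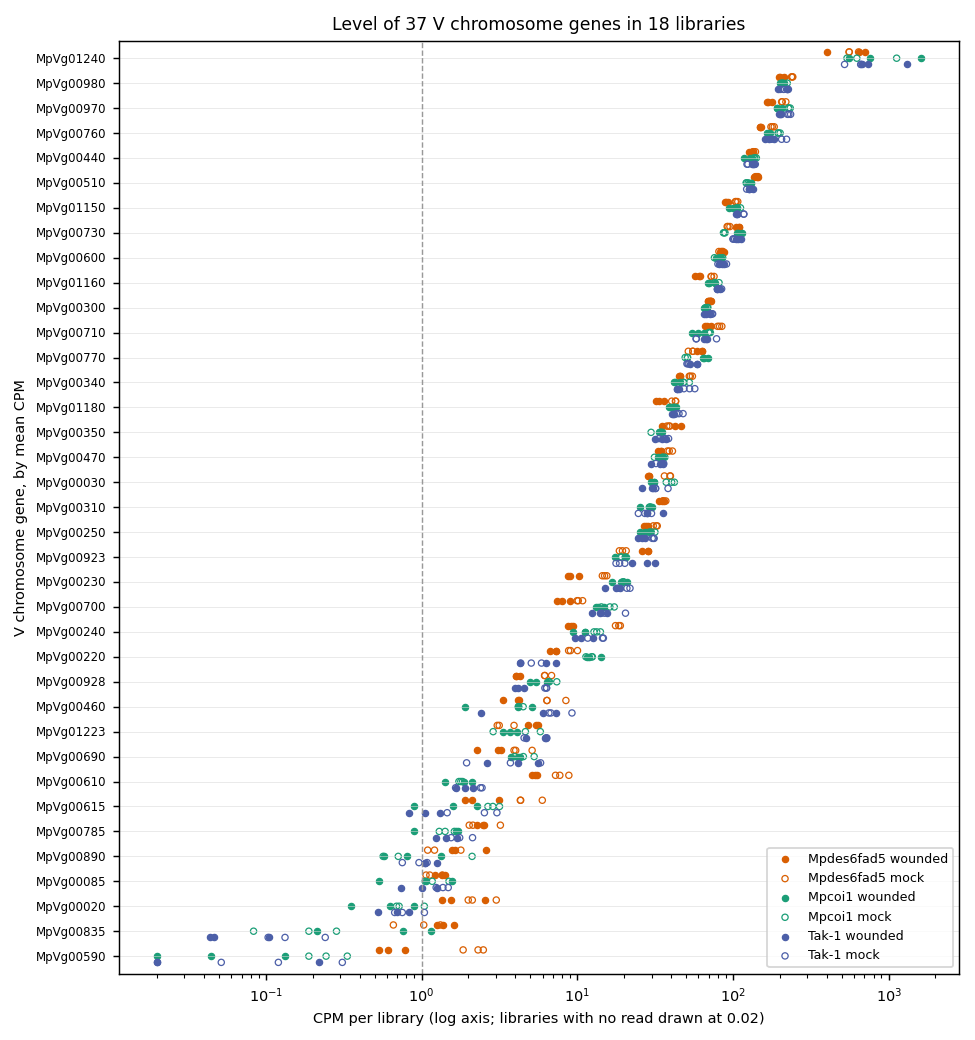
CPM of each of the 37 V chromosome genes in every library on a log axis, genes ordered by their mean, with filled points for wounded and open points for mock plants of Mpdes6fad5, Mpcoi1 and Tak-1 and a dashed line at 1 CPM. Points of 1 gene lie close together for most genes, while MpVg00590, MpVg00020 and MpVg00610 have their Mpdes6fad5 points to the right of the others, and MpVg01240 has 3 libraries above 1000 CPM.

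The 37 genes together took 0.213% to 0.321% of the reads of a library. By mean CPM 24 of them were at 10 or more and 8 at 100 or more, while 7 were under 3. A CPM is a share of reads that also grows with transcript length, and lengths of the V genes were not used here, so these values do not rank the genes by transcript number. Many varied by little over the 18 libraries. Of the 24 genes at 10 CPM or more, 11 (45.8%) had a coefficient of variation under 10% over all 18 libraries, against 21.3% of all 9447 genes at that level. The median was 10.6%, against 16.1% for all of those genes. Small variation did not mean that no call was made, and genes such as MpVg00250 and MpVg01180 were among the 11. MpVg00300 was the steadiest, at 65.3 to 74.1 CPM over 18 libraries, and MpVg00600 ran from 76.1 to 91.0 CPM. Called, at an adjusted p under 0.05, in none of the 9 comparisons described here were 8 of the 37 genes: MpVg00085, MpVg00300, MpVg00350, MpVg00440, MpVg00600, MpVg00690, MpVg00890 and MpVg01240. The share of all tested genes called in none of the 9 was not computed, so this count does not set the V genes apart.

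Summed without MpVg01240, the gene with the most reads, the V genes held 1664 to 1703 CPM in wounded Mpdes6fad5, against 1860 to 1883 CPM in mock Mpdes6fad5. The sum was 1703 to 1744 CPM in wounded Mpcoi1, against 1810 to 1821 CPM in mock Mpcoi1. It was 1737 to 1796 CPM in wounded Tak-1, against 1792 to 1893 CPM in mock Tak-1. On this sum the wounded libraries lay below the mock libraries in both mutants, and the ranges overlapped in Tak-1. With MpVg01240 included they lay below only in Mpdes6fad5, at 2103 to 2383 CPM, against 2418 to 2512 CPM in mock plants. The full sum was 2256 to 3343 CPM in wounded Mpcoi1, against 2355 to 2947 CPM in mock Mpcoi1. In Tak-1 it was 2432 to 3099 CPM in wounded plants, against 2414 to 2505 CPM in mock plants. In bulk tissue, fewer cells of a type and less RNA per cell cannot be told apart.

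MpVg01240 had from 400.1 to 1620 CPM and made up 19.0% to 48.5% of the summed V level. It had 400.1, 642 and 706 CPM in wounded Mpdes6fad5, against 559, 641 and 557 CPM in mock Mpdes6fad5. In Mpcoi1 it had 1620, 554 and 758 CPM in wounded plants, against 625, 540.4 and 1126 CPM in mock plants. In Tak-1 the values were 677, 1304 and 739 CPM in wounded plants, against 666, 522 and 662 CPM in mock plants. High libraries thus occurred in wounded and mock plants, with mates of the same group at ordinary levels, and its wound responses of -0.047 ± 0.34, 0.28 ± 0.34 and 0.50 ± 0.34 in Mpdes6fad5, Mpcoi1 and Tak-1 were not called. In Tak-1 the wounded libraries lay above the mock ones without overlap, and the difference did not pass the test. Chosen after its values were seen, Mp6g09310, a gene of chromosome 6 without a symbol, had its 3 highest levels in the same 3 libraries: 179 CPM in wounded Mpcoi1 replicate 1, 143 CPM in mock Mpcoi1 replicate 3 and 140.1 CPM in wounded Tak-1 replicate 2, with 46.9 to 103 CPM in the others.

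Wounding changed part of the V genes, mostly downward, and none of them by 2-fold or more on the scale used. Differences are in log2 units of CPM + 1 with their standard error, on which scale changes of genes near 1 CPM are smaller than their ratio of CPM, and a gene was called at an adjusted p under 0.05 over all 13220 genes. Of all tested genes, 12.8%, 9.73% and 11.8% were called with 2-fold or more in Mpdes6fad5, Mpcoi1 and Tak-1. By ratio of mean CPM some V genes did change by 2-fold or more. MpVg00240 in Mpdes6fad5 averaged 9.07 CPM in wounded plants, against 18.3 CPM in mock plants. In Mpdes6fad5, 4 V genes rose, 20 fell and 13 did not pass, so that 64.9% were called, against 57% of all tested genes. The 20 include MpVg00590, whose fall was fixed by the filter. In Mpcoi1, 3 rose, 8 fell and 26 did not pass, which is 29.7% called, against 52.9% of all genes. In Tak-1, 2 rose, 8 fell and 27 did not pass, which is 27.0% called, against 56.6% of all genes. Among all tested genes rises and falls were more even: 28.1% rose and 28.9% fell in Mpdes6fad5, 24.5% and 28.5% in Mpcoi1, and 26% and 30.6% in Tak-1. The median log2 response of the 37 genes was -0.22, -0.11 and -0.10 in Mpdes6fad5, Mpcoi1 and Tak-1, against -0.03, -0.05 and -0.06 for all genes tested. The median size regardless of sign was 0.28, 0.14 and 0.14, against 0.29, 0.26 and 0.28 for all genes. The 37 genes are those that passed the filter, and these shares and medians are descriptions without a test of the set.

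These counts changed with the normalization. With quantile normalization 1 V gene rose and 17 fell in Tak-1, and 2 rose and 15 fell in Mpcoi1; with scaling to library totals 1 rose and 15 fell in Tak-1. In Mpdes6fad5, 2 rose and 26 fell with quantile normalization, and 2 rose and 22 fell with library totals. The all-gene median moved down too. With quantile normalization it was -0.15, -0.11 and -0.14 in Mpdes6fad5, Mpcoi1 and Tak-1, against -0.03, -0.05 and -0.06 as deposited. With library totals it was -0.12, -0.11 and -0.15. Shares of all genes called under these settings were not computed, so these values cannot tell whether the added falls are particular to V genes.

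**Figure D2:**
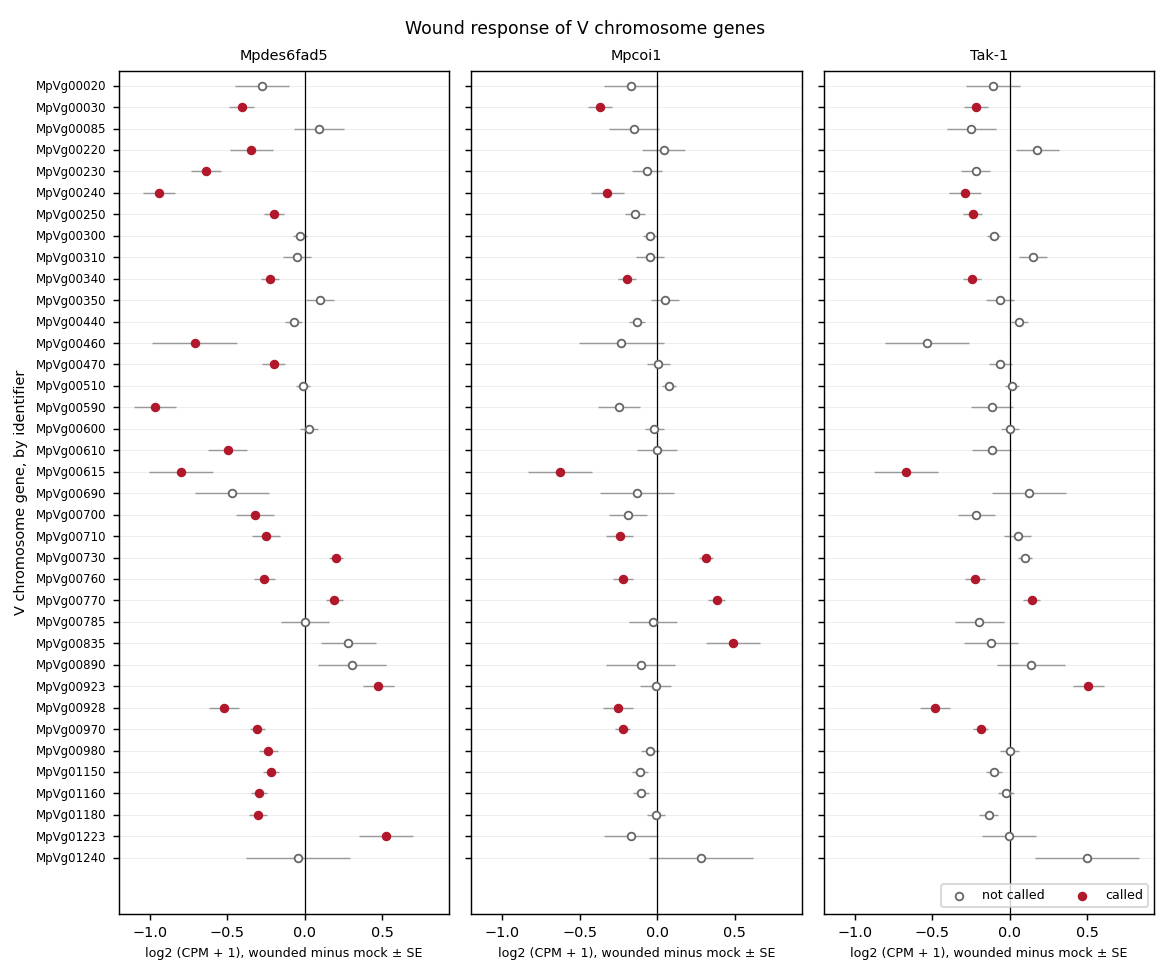
Wound response of each V gene, wounded minus mock on the log2(CPM + 1) scale, in Mpdes6fad5, Mpcoi1 and Tak-1, with bars for the standard error and red points for genes called at adjusted p under 0.05. More points are red in Mpdes6fad5 (24) than in Mpcoi1 (11) or Tak-1 (10), and most red points lie left of 0. The 24 include MpVg00590, whose fall was fixed by the filter.

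**Figure D3:**
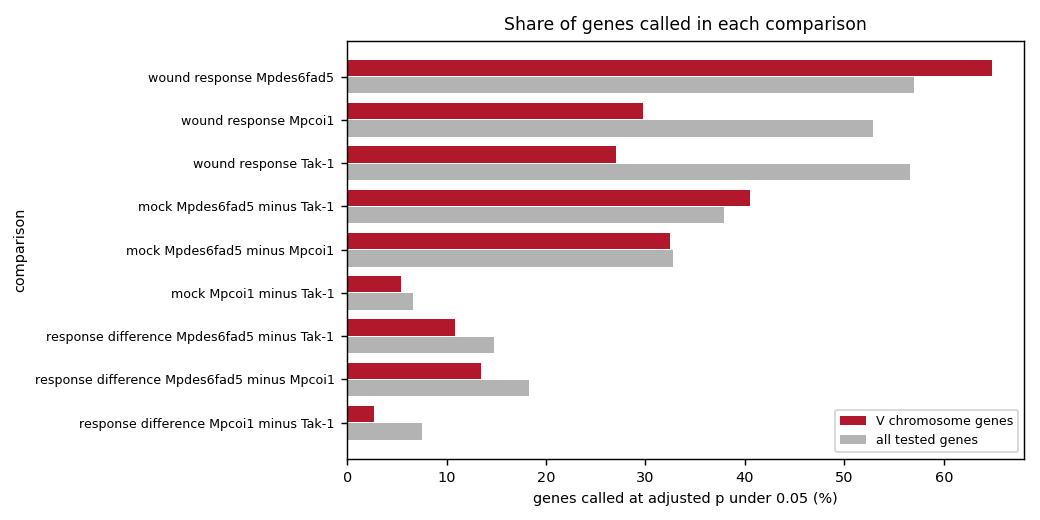
Share of the 37 V genes (red) and of all 13220 tested genes (grey) called at adjusted p under 0.05 in each of the 9 comparisons. The red bar is longer than the grey one for the wound response of Mpdes6fad5 and for mock Mpdes6fad5 minus Tak-1, and shorter in the other comparisons, most so for the wound responses of Mpcoi1 and Tak-1. The red bars for Mpdes6fad5 include calls fixed or favoured by the filter.

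The genes that fell in all 3 genotypes were MpVg00030, MpVg00240, MpVg00340, MpVg00615, MpVg00760, MpVg00928 and MpVg00970. How many of all tested genes fell in all 3 was not computed, so this list does not set the V genes apart. MpVg00970 had 166, 178 and 167 CPM in wounded Mpdes6fad5, against 206, 219 and 208 CPM in mock Mpdes6fad5. It had 192, 191 and 207 CPM in wounded Mpcoi1, against 227, 228 and 234 CPM in mock Mpcoi1. It had 204, 198 and 202 CPM in wounded Tak-1, against 224, 235 and 229 CPM in mock Tak-1. The groups did not overlap in any genotype, and the falls were small in each: -0.30 ± 0.047, adjusted p = 2.57e-05 in Mpdes6fad5; -0.22 ± 0.047, adjusted p = 6.93e-04 in Mpcoi1; -0.19 ± 0.047, adjusted p = 0.0027 in Tak-1. With quantile normalization they were larger, at -0.52, -0.36 and -0.40.

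MpVg00030 had 28.9, 28.3 and 29.1 CPM in wounded Mpdes6fad5, against 39.7, 39.4 and 36.3 CPM in mock plants (-0.41 ± 0.079, adjusted p = 2.72e-04). In Mpcoi1 it had 29.6, 31.2 and 31.3 CPM after wounding, against 40.4, 42.1 and 37.3 CPM in mock plants (-0.37 ± 0.079, adjusted p = 7.58e-04). In Tak-1 it had 26.04, 30.8 and 30.4 CPM after wounding, against 31.8, 38.3 and 31.9 CPM in mock plants (-0.22 ± 0.079, adjusted p = 0.0263). The groups did not overlap in any genotype, but the Tak-1 call was lost when mock replicate 2 (log2 -0.13) or wounded replicate 1 (log2 -0.14) was left out, its adjusted p running from 0.00433 to 0.157 over the alternatives.

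MpVg00928, at a few CPM, had 4.07, 4.31 and 4.07 CPM in wounded Mpdes6fad5, against 6.19, 6.84 and 6.17 CPM in mock plants (-0.52 ± 0.10, adjusted p = 1.55e-04). The Mpcoi1 values were 6.36, 4.996 and 5.43 CPM after wounding, against 6.54, 7.39 and 6.63 CPM in mock plants (-0.26 ± 0.10, adjusted p = 0.0326). Tak-1 plants had 4.16, 3.998 and 4.53 CPM after wounding, against 6.36, 6.34 and 6.20 CPM in mock plants (-0.48 ± 0.10, adjusted p = 3.41e-04). The 3 wounded libraries lay below the 3 mock libraries in each genotype. The Mpcoi1 call was lost without mock replicate 2 (-0.21) or 3 (-0.28), without wounded replicate 2 (-0.19) or 3 (-0.24), and with quantile normalization (-0.17), with adjusted p of 0.0113 to 0.146 over the alternatives.

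MpVg00615 had 2.12, 1.90 and 3.15 CPM in wounded Mpdes6fad5, against 5.97, 4.31 and 4.33 CPM in mock plants (-0.80 ± 0.21, adjusted p = 0.00304). The Mpcoi1 values were 2.26, 1.59 and 0.89 CPM after wounding, against 2.87, 3.17 and 2.67 CPM in mock plants (-0.63 ± 0.21, adjusted p = 0.0159). Tak-1 plants had 1.05, 0.837 and 1.32 CPM after wounding, against 2.53, 3.05 and 1.46 CPM in mock plants (-0.67 ± 0.21, adjusted p = 0.0103). On the log2(CPM + 1) scale this was the deepest called fall of a V gene in Mpcoi1 and in Tak-1, and the groups did not overlap. By ratio of mean CPM, MpVg00590 in Mpcoi1 (0.231, against 0.545 for MpVg00615) and MpVg00835 in Tak-1 (0.411, against 0.456) were lower on few reads and were not called. The Tak-1 call was lost without mock replicate 2 (-0.52; adjusted p of 0.00217 to 0.0596 over the alternatives). The Mpcoi1 call was lost without mock replicate 2 (-0.58) or wounded replicate 3 (-0.42; adjusted p of 0.00483 to 0.0983 over the alternatives). At this low level the constant sets the size, which ran from -0.27 to -1.03 in Tak-1 with constants of 5 and 0.1 CPM.

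The log2 wound responses of MpVg00340 were -0.22, -0.19 and -0.24 and those of MpVg00760 -0.26, -0.22 and -0.22 in Mpdes6fad5, Mpcoi1 and Tak-1, the groups of MpVg00760 overlapping in Tak-1. The Mpcoi1 call of MpVg00340 was lost without Mpcoi1 mock replicate 3 (-0.16) or wounded replicate 2 (-0.17), and the Tak-1 call of MpVg00760 without Tak-1 mock replicate 1 (-0.15). With quantile normalization the falls of MpVg00760 were -0.48, -0.37 and -0.42.

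Rises were few. MpVg00770 was the 1 gene called as higher in all 3 genotypes: it had 62.9, 59.01 and 63.6 CPM in wounded Mpdes6fad5, against 51.7, 55.2 and 55.3 CPM in mock plants (0.19 ± 0.054, adjusted p = 0.00579). The Mpcoi1 values were 65.5, 64.3 and 68.8 CPM after wounding, against 51.1, 51.05 and 49.4 CPM in mock plants (0.38 ± 0.054, adjusted p = 9.31e-06). Tak-1 plants had 53.2, 58.8 and 58.8 CPM after wounding, against 52.2, 50.7 and 51.4 CPM in mock plants (0.14 ± 0.054, adjusted p = 0.0321). The groups did not overlap, and the Mpcoi1 call held under every alternative. The calls in Mpdes6fad5 and Tak-1 rest on the scaling: with quantile normalization the differences were 0.07 and 0.0063, with library totals 0.086 and 0.04, and neither was called (adjusted p of 0.0037 to 0.266 and 0.00926 to 0.928 over the alternatives). The Tak-1 call was also lost without Tak-1 mock replicate 2 (0.13) or 3 (0.14) and without wounded replicate 2 (0.12) or 3 (0.12).

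MpVg00730 rose in both mutants. It had 106, 108 and 115 CPM in wounded Mpcoi1, against 87.9, 86.95 and 89.01 CPM in mock Mpcoi1 (0.31 ± 0.046, adjusted p = 1.58e-05), or 0.15 with quantile normalization, still called. In Mpdes6fad5 it had 110, 109 and 104 CPM after wounding, against 95.7, 91.8 and 92.998 CPM in mock plants (0.20 ± 0.046, adjusted p = 0.00119), a call lost with quantile normalization (0.0069) and with library totals (0.10; adjusted p of 5.50e-04 to 0.917 over the alternatives). In Tak-1 it had 109, 112 and 104 CPM after wounding, against 103, 101 and 100.03 CPM in mock plants, which was not called (0.10 ± 0.046). The wounded levels of the 3 genotypes lay within 104 to 115 CPM, and the mock level was lower in Mpcoi1 than in Tak-1 (-0.20 ± 0.046, adjusted p = 0.0152); that call was lost without Mpcoi1 mock replicate 2 (-0.19) or Tak-1 mock replicate 1 (-0.19) and with library totals (-0.16; adjusted p of 0.0088 to 0.072 over the alternatives). The response of MpVg00730 was not called as different between any genotypes.

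MpVg01223 rose in Mpdes6fad5, with 4.82, 5.61 and 5.44 CPM after wounding, against 3.93, 3.06 and 3.15 CPM in mock plants (0.53 ± 0.17, adjusted p = 0.0154), a call lost without mock replicate 2 (0.47; adjusted p of 0.00439 to 0.0562 over the alternatives). It had 3.71, 4.11 and 3.34 CPM in wounded Mpcoi1, against 4.65, 2.88 and 5.79 CPM in mock Mpcoi1. In Tak-1 it had 6.27, 6.23 and 4.66 CPM after wounding, against 6.31, 6.38 and 4.56 CPM in mock plants. The Mpdes6fad5 mock level was below that of Tak-1 (-0.62 ± 0.17, adjusted p = 0.00931), with no overlap, and the wounded level lay within the Tak-1 range.

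MpVg00923 was the V gene whose rise was seen in Mpdes6fad5 and Tak-1 but not called in Mpcoi1, the receptor mutant. It had 28.3, 26.1 and 28.4 CPM in wounded Mpdes6fad5, against 18.7, 19.5 and 20.6 CPM in mock Mpdes6fad5 (0.47 ± 0.10, adjusted p = 5.38e-04). It had 28.2, 31.6 and 22.6 CPM in wounded Tak-1, against 18.7, 20.2 and 17.7 CPM in mock Tak-1 (0.51 ± 0.10, adjusted p = 3.01e-04). In Mpcoi1 it had 20.1, 20.7 and 17.4 CPM after wounding, against 19.3, 20.3 and 18.97 CPM in mock plants (-0.011 ± 0.10). Wounded libraries thus lay above mock libraries in Mpdes6fad5 and Tak-1 and overlapped with them in Mpcoi1, and both rises were called under every alternative. The response in Mpcoi1 was smaller than in Tak-1 (-0.52 ± 0.14, adjusted p = 0.0296), and that in Mpdes6fad5 was larger than in Mpcoi1 (0.48 ± 0.14, adjusted p = 0.0221). The response of Mpdes6fad5 minus that of Tak-1 was -0.031 ± 0.14 and was not called. The first of these calls was lost in 8 of the 18 fits without 1 library, those without Mpcoi1 mock replicate 1 (-0.53), 2 (-0.49) or 3 (-0.54), Mpcoi1 wounded replicate 3 (-0.44), Tak-1 mock replicate 1 (-0.51) or 3 (-0.47) and Tak-1 wounded replicate 1 (-0.49) or 2 (-0.41), with adjusted p of 0.00135 to 0.0818 over the alternatives. The second was lost without Mpcoi1 mock replicate 2 (0.46) or Mpdes6fad5 mock replicate 1 (0.45), with adjusted p of 0.00454 to 0.0559. MpVg00928, the next of the 37 genes by identifier, fell in all 3 genotypes, as given above.

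Between unwounded genotypes, more V genes were called against Tak-1 in Mpdes6fad5 than in Mpcoi1, and the same held for all tested genes at similar shares. In mock Mpdes6fad5, 11 V genes exceeded their mock Tak-1 level, 4 were lower and 22 did not pass, so that 40.5% were called, against 37.9% of all tested genes, of which 17.5% were higher and 20.4% lower. Of the 11, 3 were the genes that needed Mpdes6fad5 libraries to pass the filter, so this count is no support for an excess. With library totals, which put the median of all genes at 0.14 instead of 0.0059, 19 were higher and 3 lower. Against mock Mpcoi1, 10 were higher in mock Mpdes6fad5, 2 were lower and 25 did not pass, which is 32.4%, against 32.8% of all genes (15.8% higher and 17% lower). The same 3 genes are among these 10, and with library totals 18 were higher and 2 lower. Both comparisons share the mock Mpdes6fad5 libraries. In mock Mpcoi1 against mock Tak-1, 1 V gene was higher, 1 was lower and 35 did not pass, which is 5.41%, against 6.66% of all genes (2.1% higher and 4.56% lower).

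**Figure D4:**
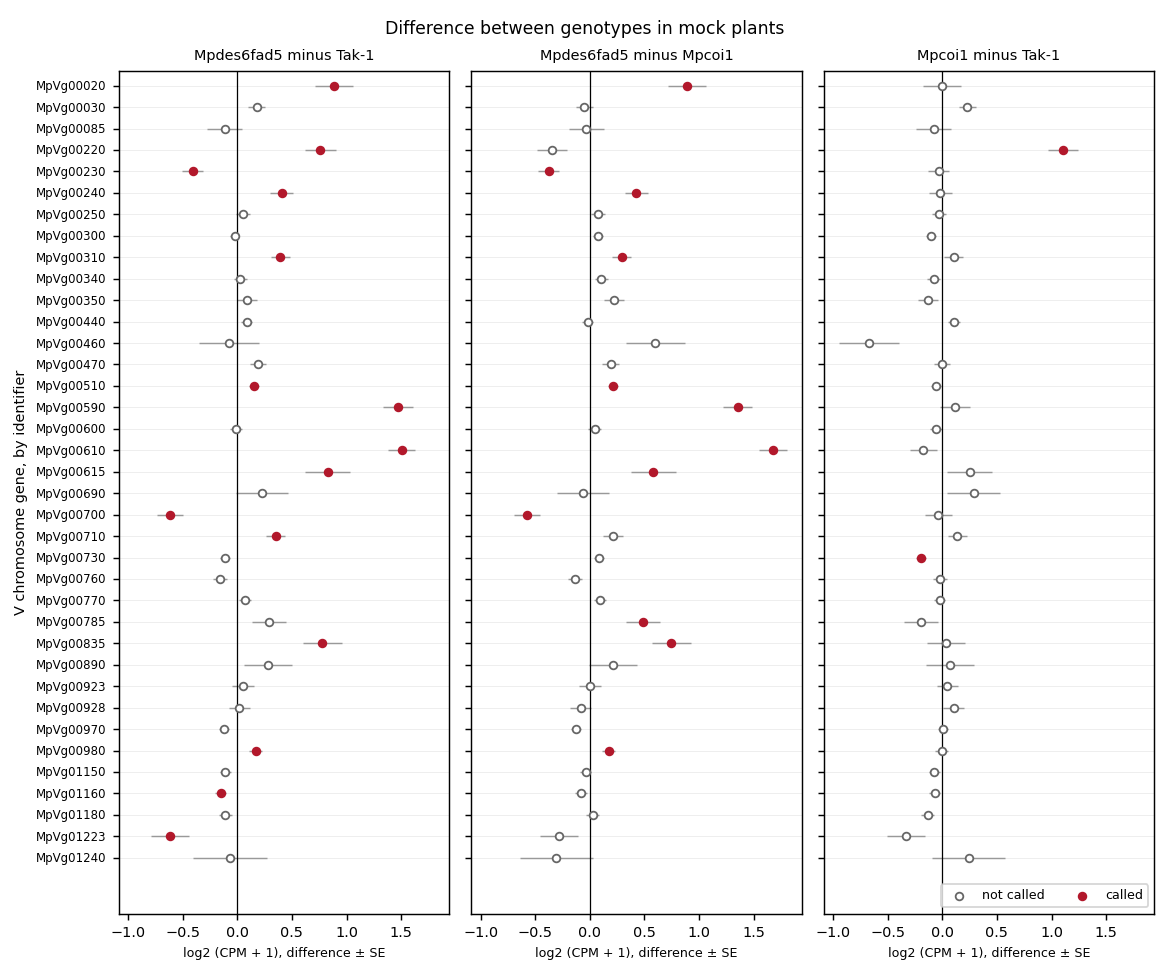
Difference between genotypes in mock plants for each V gene on the log2(CPM + 1) scale, with bars for the standard error and red points for genes called at adjusted p under 0.05. MpVg00590 and MpVg00610 lie furthest right in both Mpdes6fad5 panels, and MpVg00220 stands alone on the right in the panel of Mpcoi1 minus Tak-1. Red points in both Mpdes6fad5 panels include calls fixed (MpVg00590) or favoured (MpVg00020 and MpVg00835) by the filter.

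MpVg00610 had the largest difference on the log2(CPM + 1) scale, while the ratio of mean CPM was larger for MpVg00590. MpVg00610 had 8.83, 7.73 and 7.25 CPM in mock Mpdes6fad5, against 1.74, 1.79 and 1.83 CPM in mock Mpcoi1 and 1.65, 2.45 and 2.39 CPM in mock Tak-1. After wounding it had 5.09, 5.52 and 5.34 CPM in Mpdes6fad5, against 1.41, 2.12 and 1.87 CPM in Mpcoi1 and 1.90, 2.14 and 1.67 CPM in Tak-1. All 6 Mpdes6fad5 libraries thus lay above all 12 others. In mock plants the difference from Tak-1 was 1.504 ± 0.13, adjusted p = 9.82e-08, a 3.67-fold ratio of mean CPM, and that from Mpcoi1 was 1.68 ± 0.13, adjusted p = 3.54e-08, a ratio of 4.44. Wounding lowered it in Mpdes6fad5 (-0.50 ± 0.13, adjusted p = 0.00265).

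MpVg00590 was close to the detection limit outside Mpdes6fad5, and its reads are given in place of CPM. It had 49, 70 and 49 reads in mock Mpdes6fad5, against 5, 6 and 8 reads in mock Mpcoi1 and 1, 3 and 7 reads in mock Tak-1. After wounding it had 12, 17 and 12 reads in Mpdes6fad5, against 0, 3 and 1 reads in Mpcoi1 and 0, 0 and 5 reads in Tak-1. The Mpdes6fad5 libraries again lay above all others, and within Mpdes6fad5 the wounded ones lay below the mock ones. Mean levels in mock plants were 2.22 ± 0.331 CPM in Mpdes6fad5, against 0.255 ± 0.073 CPM in Mpcoi1 and 0.161 ± 0.134 CPM in Tak-1 (SD, n = 3), and the log2 differences were 1.35 from Mpcoi1 and 1.47 from Tak-1. The ratio of mean CPM to Tak-1 was 13.8, resting on 11 reads in Tak-1. The wounded minus mock difference in Mpdes6fad5 was -0.97. These are descriptions, since the high mock Mpdes6fad5 libraries admitted the gene. The constant decides the size of these values, and with a constant of 0.1 CPM the difference from Tak-1 was 3.27, with 5 CPM 0.48.

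By identifier, MpVg00590, MpVg00610 and MpVg00615 follow one another with MpVg00595 and MpVg00600 between. MpVg00615 was also higher in mock Mpdes6fad5, by 0.83 ± 0.21, adjusted p = 0.00406 against Tak-1 and by 0.58 ± 0.21, adjusted p = 0.0387 against Mpcoi1. The second of these was lost in 9 alternatives, among them leaving out Mpdes6fad5 mock replicate 1 (0.45), 2 (0.65) or 3 (0.64) or Mpcoi1 mock replicate 1 (0.57), 2 (0.63) or 3 (0.54), and its adjusted p ran from 0.013 to 0.165. MpVg00600, which lies among them, was one of the steadiest genes, with differences of -0.013 ± 0.059 from Tak-1 and 0.045 ± 0.059 from Mpcoi1 that were not called. MpVg00595 was below the filter. How reads shared between near-identical genes were counted is not stated, so values of neighbouring low genes are uncertain in that respect.

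MpVg00020 and MpVg00835 were the other low genes with more reads in Mpdes6fad5. MpVg00020 had 3.02, 1.995 and 2.12 CPM in mock Mpdes6fad5, against 0.718, 0.69 and 1.04 CPM in mock Mpcoi1 and 0.672, 1.04 and 0.752 CPM in mock Tak-1. It had 1.55, 1.34 and 2.54 CPM in wounded Mpdes6fad5, against 0.896, 0.354 and 0.623 CPM in wounded Mpcoi1 and 0.527, 0.697 and 0.836 CPM in wounded Tak-1. Its mock log2 difference, favoured in direction by the filter, was 0.89 from Mpcoi1 and 0.88 from Tak-1, and no wound response was called.

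MpVg00835 had 35, 29 and 14 reads in mock Mpdes6fad5, against 5, 7 and 2 in mock Mpcoi1 and 2, 6 and 3 in mock Tak-1. It had 31, 27 and 32 reads in wounded Mpdes6fad5, against 5, 26 and 17 in wounded Mpcoi1 and 2, 1 and 1 in wounded Tak-1. Its mock log2 difference, likewise favoured in direction, was 0.75 from Mpcoi1 and 0.78 from Tak-1. In Mpcoi1 it was called as higher after wounding (0.49 ± 0.18, adjusted p = 0.0259), although the groups overlapped, and the call was lost without Mpcoi1 mock replicate 1 (0.49) or 3 (0.43), without wounded replicate 2 (0.30) or 3 (0.45), and with quantile normalization (0.37; adjusted p of 0.00134 to 0.164 over the alternatives).

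Of the more abundant genes with an excess in mock Mpdes6fad5 over mock Tak-1, MpVg00310 and MpVg00710 differed by 0.39 ± 0.09 and 0.35 ± 0.089, and MpVg00510 by 0.15 ± 0.046. MpVg00785, a gene of a few CPM, was called as higher against mock Mpcoi1 and not against mock Tak-1 (0.48 ± 0.16, adjusted p = 0.023), a call lost without Mpcoi1 mock replicate 2 (0.44) or 3 (0.48), without Mpdes6fad5 mock replicate 1 (0.33) and with quantile normalization (0.34; adjusted p of 0.00799 to 0.139 over the alternatives). The call of MpVg00510 against Tak-1 was lost without Tak-1 mock replicate 3 (0.12) or Mpdes6fad5 mock replicate 1 (0.14). MpVg00980 had 240.3, 238 and 242 CPM in mock Mpdes6fad5, against 206, 223 and 209 CPM in mock Mpcoi1 and 202, 227 and 212 CPM in mock Tak-1. In wounded plants it had 214, 201 and 197 CPM in Mpdes6fad5, against 213, 206 and 200.03 CPM in Mpcoi1 and 222, 224 and 195 CPM in Tak-1. The excess was seen in mock plants (0.17 ± 0.059, adjusted p = 0.0312 against Tak-1 and 0.17 ± 0.059, adjusted p = 0.0308 against Mpcoi1), and wounding lowered the level in Mpdes6fad5 (-0.23 ± 0.059, adjusted p = 0.00256). With quantile normalization the mock differences were 0.33 from Tak-1 and 0.30 from Mpcoi1, and with library totals 0.31 and 0.28. Each mock call was lost without any single Mpdes6fad5 mock library, with differences from Tak-1 of 0.17, 0.18 and 0.16 and from Mpcoi1 of 0.17, 0.18 and 0.17. The first was also lost without Tak-1 mock replicate 1 (0.13) or 3 (0.16), and the second without Mpcoi1 mock replicate 1 (0.15) or 3 (0.16).

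In mock plants both mutants had more MpVg00220 than the wild type. It had 10.04, 9.05 and 8.81 CPM in mock Mpdes6fad5 and 11.4, 12.4 and 12.5 CPM in mock Mpcoi1, against 5.07, 5.90 and 4.34 CPM in mock Tak-1. After wounding it had 6.73, 7.28 and 7.33 CPM in Mpdes6fad5 and 14.2, 11.5 and 11.9 CPM in Mpcoi1, against 6.27, 7.35 and 4.31 CPM in Tak-1. All Mpcoi1 libraries were above all Tak-1 libraries, while wounded Mpdes6fad5 overlapped with wounded Tak-1. In mock plants the difference from Tak-1 was 1.11 ± 0.14, adjusted p = 6.87e-05 in Mpcoi1, a 2.37-fold ratio of mean CPM, and 0.76 ± 0.14, adjusted p = 3.12e-04 in Mpdes6fad5, both called under every alternative tried. These comparisons share the mock Tak-1 libraries. In Mpdes6fad5 the wounded level was called as lower (-0.34 ± 0.14, adjusted p = 0.0421), a call lost without any 1 of the 6 Mpdes6fad5 libraries (-0.38 to -0.29), without Mpcoi1 mock replicate 2 or 3, and without the filter on low values, with adjusted p of 0.0108 to 0.131 over the alternatives.

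The genes that were lower in mock Mpdes6fad5 than in both other genotypes were MpVg00230 and MpVg00700. MpVg00700 had 10.2, 10.8 and 9.98 CPM in mock Mpdes6fad5, against 16.2, 14.3 and 17.3 CPM in mock Mpcoi1 and 14.9, 20.4 and 14.2 CPM in mock Tak-1. After wounding it had 8.94, 7.93 and 7.38 CPM in Mpdes6fad5, against 14.8, 13.6 and 13.1 CPM in Mpcoi1 and 14.1, 15.5 and 12.4 CPM in Tak-1. Mpdes6fad5 lay below both others before and after wounding, with mock differences of -0.58 ± 0.12, adjusted p = 0.0012 from Mpcoi1 and -0.61 ± 0.12, adjusted p = 6.09e-04 from Tak-1.

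**Figure D5:**
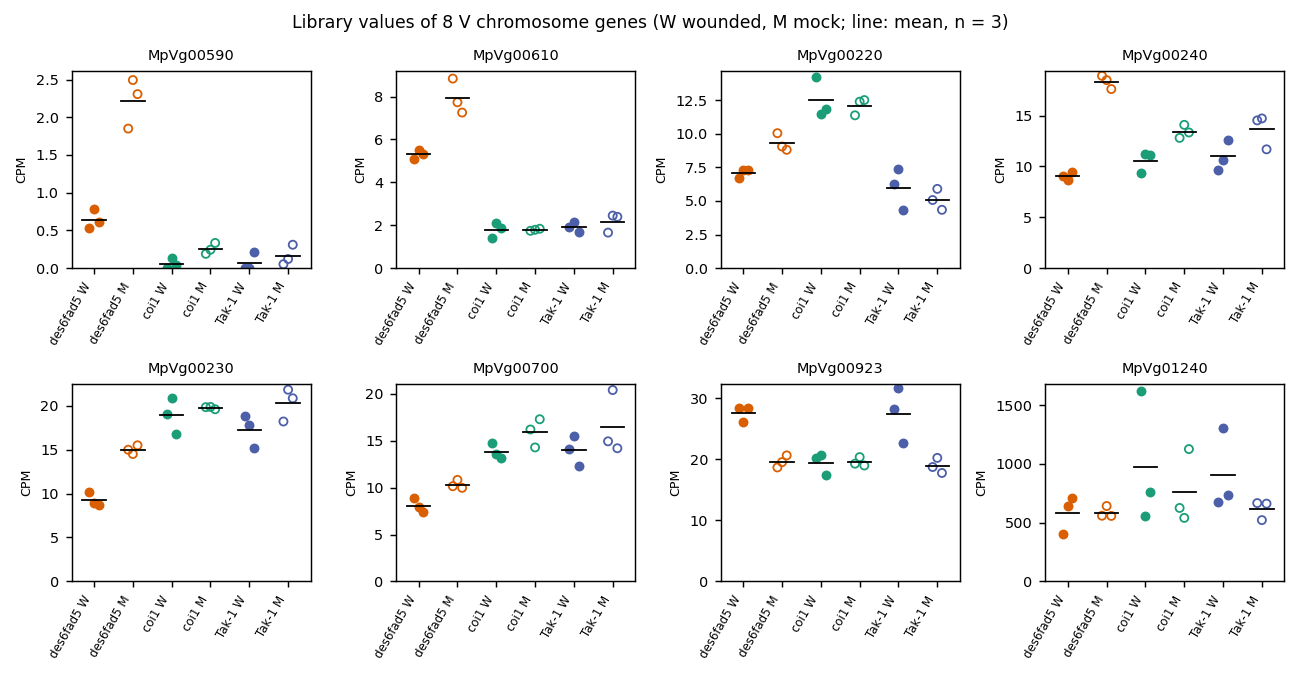
CPM of 8 V genes in every library, with wounded (W, filled) and mock (M, open) plants of Mpdes6fad5, Mpcoi1 and Tak-1 and a line at the mean of 3 libraries. MpVg00590 and MpVg00610 stand high in Mpdes6fad5, MpVg00220 in Mpcoi1, MpVg00923 in wounded Mpdes6fad5 and Tak-1 alone, and MpVg01240 is high in single libraries of 3 groups.

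The wound response of V genes differed between genotypes for few of them. Between Mpdes6fad5 and Tak-1, 4 V genes had a smaller (more negative or less positive) log2 response in Mpdes6fad5, 0 a larger one and 33 did not pass, which is 10.8%, against 14.8% of all genes (7.47% larger and 7.37% smaller). Between Mpdes6fad5 and Mpcoi1, 4 were smaller, 1 was larger and 32 did not pass, which is 13.5%, against 18.3% of all genes (10.2% larger and 8.13% smaller). Between Mpcoi1 and Tak-1, 1 was smaller and 36 did not pass, which is 2.70%, against 7.57% of all genes (2.4% larger and 5.17% smaller); with quantile normalization 2 were larger and 1 smaller. Of the 12 V genes called as changed after wounding in Mpdes6fad5 and in neither other genotype, MpVg00230, MpVg01160 and MpVg01180 passed at least 1 test of the difference, MpVg00590 is set aside because of how it passed the filter, and the remaining 8 passed none. MpVg00590 is counted among the genes with a smaller response in both Mpdes6fad5 comparisons above. How many of all tested genes were called in Mpdes6fad5 alone was not computed, so the count of 12 does not set the V genes apart.

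MpVg00240 fell in all genotypes and further in Mpdes6fad5. It had 9.07, 8.71 and 9.41 CPM in wounded Mpdes6fad5, against 18.9, 18.5 and 17.6 CPM in mock plants (-0.94 ± 0.10, adjusted p = 4.23e-07). The Mpcoi1 values were 9.34, 11.2 and 11.2 CPM after wounding, against 12.8, 14.1 and 13.3 CPM in mock plants (-0.32 ± 0.10, adjusted p = 0.0152). Tak-1 plants had 9.70, 10.6 and 12.6 CPM after wounding, against 14.5, 14.7 and 11.7 CPM in mock plants (-0.29 ± 0.10, adjusted p = 0.025), groups that overlapped. The wounded values of the 3 genotypes lay within 8.71 to 12.6 CPM, and the mock level was higher in Mpdes6fad5 than in Tak-1 by 0.41 ± 0.10, adjusted p = 0.00499. The response differed by -0.65 ± 0.15, adjusted p = 0.00638 from Tak-1 and by -0.62 ± 0.15, adjusted p = 0.00642 from Mpcoi1, both under every alternative. The calls in the other genotypes were less firm: that in Tak-1 was lost without mock replicate 1 (-0.24) or 2 (-0.23) or wounded replicate 1 (-0.21) or 2 (-0.27), and that in Mpcoi1 without mock replicate 2 (-0.29) or wounded replicate 1 (-0.24).

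MpVg00230 had 10.2, 8.95 and 8.70 CPM in wounded Mpdes6fad5, against 14.99, 14.5 and 15.5 CPM in mock plants (-0.64 ± 0.10, adjusted p = 1.92e-05). In Mpcoi1 it had 19.1, 20.9 and 16.8 CPM after wounding, against 19.8, 19.9 and 19.6 CPM in mock plants (-0.064 ± 0.10, not called). In Tak-1 it had 18.9, 17.8 and 15.2 CPM after wounding, against 18.2, 21.8 and 20.8 CPM in mock plants (-0.22 ± 0.10, not called). All Mpdes6fad5 libraries but mock replicate 3 lay below all libraries of the other genotypes, that one, at 15.5 CPM, lying above wounded Tak-1 replicate 3. The response differed from that of Mpcoi1 by -0.57 ± 0.14, adjusted p = 0.00652 under every alternative. The difference from Tak-1 (-0.42 ± 0.14, adjusted p = 0.0478) was lost in 17 of 27 alternatives, with adjusted p of 0.0127 to 0.119, 0.0506 with replicate number as a block, and without a library its value ran from -0.44 to -0.35 in the fits that lost it.

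For MpVg00590 the log2 response of Mpdes6fad5 minus that of Tak-1 was -0.85, and minus that of Mpcoi1 it was -0.72, values that rest on the mock Mpdes6fad5 libraries that admitted the gene. With a constant of 0.1 CPM they were -0.95 and -0.42, and with voom on recovered reads -0.19 and 0.40, the last of the opposite sign.

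MpVg01160 had 57.2, 61.5 and 60.7 CPM in wounded Mpdes6fad5, against 72.3, 75.7 and 72.9 CPM in mock plants (-0.30 ± 0.053, adjusted p = 1.14e-04). It had 82.97, 79.5 and 79.1 CPM in wounded Tak-1, against 84.7, 81.8 and 79.5 CPM in mock Tak-1, and the responses differed by -0.27 ± 0.075, adjusted p = 0.0207. Its mock level was also lower in Mpdes6fad5 than in Tak-1 (-0.15 ± 0.053, adjusted p = 0.0294), a call lost with quantile normalization (-0.093) and library totals (-0.01), and without Tak-1 mock replicate 1 (-0.13) or Mpdes6fad5 mock replicate 1 (-0.14) or 3 (-0.15; adjusted p of 0.0216 to 0.88 over the alternatives). The call on the response was lost without Mpdes6fad5 mock replicate 2 (-0.25) or wounded replicate 1 (-0.24), or Tak-1 mock replicate 3 (-0.25) or wounded replicate 1 (-0.25).

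MpVg01180 had 32.2, 33.6 and 35.97 CPM in wounded Mpdes6fad5, against 42.9, 42.7 and 40.4 CPM in mock plants (-0.30 ± 0.06, adjusted p = 3.16e-04). In Mpcoi1 it had 38.8, 43.3 and 41.1 CPM after wounding, against 42.5, 39.8 and 41.7 CPM in mock plants, and the responses differed by -0.29 ± 0.085, adjusted p = 0.0216. That call was lost without Mpdes6fad5 mock replicate 1 (-0.28) or 2 (-0.28) or wounded replicate 1 (-0.26), or Mpcoi1 mock replicate 2 (-0.27) or wounded replicate 2 (-0.25).

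Further V genes fell in Mpdes6fad5. MpVg00470, MpVg01150, MpVg00250 and MpVg00710 had differences of -0.20 ± 0.075, -0.22 ± 0.052, -0.20 ± 0.064 and -0.25 ± 0.089, and MpVg00700 and MpVg00460 of -0.32 ± 0.12 and -0.71 ± 0.27. Of these, the calls of MpVg01150 and MpVg00250 were kept under every alternative, and those of MpVg00460, MpVg00470, MpVg00700 and MpVg00710 were lost without single Mpdes6fad5 libraries. MpVg00250 also fell in Tak-1 (-0.24 ± 0.064, adjusted p = 0.00381), and MpVg00710 in Mpcoi1 (-0.24 ± 0.089, adjusted p = 0.0291), a call lost without 5 of the 6 Mpcoi1 libraries in turn. Over the 9 comparisons, 50 of 84 calls of V genes were kept under every alternative that gave a value. These counts include the calls fixed or favoured by the filter.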

How the data were processed

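The deposited table holds log2 CPM values per gene (read counts scaled to library size), made by the authors with a small added constant. Trim Galore, HISAT2, HTSeq and edgeR are named in the submitters' processing notes, without versions; build, strand setting and treatment of shared reads are not stated there. CPM was taken as 2 to the power of the value minus that of the table minimum (-3.50). Whole reads were recovered: 100% of values up to 1000 reads were whole within 0.01 reads. The authors' scaling between libraries was kept. With it the CPM of a library summed to between 905644 and 1.10293e+06, so it differs from scaling to library totals. Genes with at least 1 CPM in at least 3 libraries (13220 of 20574) were put on the log2(CPM + 1) scale and fitted in limma (version 3.58.1, R 4.3.3), with 1 mean per group over 18 libraries, a trended variance prior and Benjamini-Hochberg adjustment over all 13220 genes, and called at adjusted p under 0.05. The fit was tested on simulated data with changes of 2-fold or more only. That test does not cover smaller differences, such as most of those called here. There are 3 biological replicates per group, each a pool of plants. The p-values rest on 1 variance per gene, estimated between pools over all 6 groups together, and not on the spread of the compared groups alone. Alternatives were added constants of 0.1 or 5 CPM, all rows unfiltered, only genes averaging at least 5 CPM, median-of-ratios or quantile normalization, replicate number as a block, voom on recovered reads and leaving out each library. Scaling to library totals was added after seeing the data.

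The members and lists were chosen with earlier results of these data known. Named V genes were, in each comparison, up to 3 with the largest log2 difference in each direction among those called, and the 3 with the highest and 3 with the lowest mean CPM; others are summarised. None of 207 V identifiers matched the reference table (MpTak2_v7.1), against 17641 of 20574 over all rows. The number of columns without a sample was 0.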

Additional observations from a re-analysis of the deposited data

Results flagged for a closer look

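The results below are those in which the wound response of a V gene passed the test of its difference between genotypes (limma, adjusted over all 13220 genes); values are differences of log2 responses. No cause was tested.

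Mpdes6fad5 minus Tak-1 gave -0.65 for MpVg00240, -0.42 for MpVg00230 and -0.27 for MpVg01160. Mpdes6fad5 minus Mpcoi1 gave -0.62 for MpVg00240, -0.57 for MpVg00230, -0.29 for MpVg01180 and 0.48 for MpVg00923. Mpcoi1 minus Tak-1 gave -0.52 for MpVg00923. MpVg00240 in both comparisons and MpVg00230 against Mpcoi1 were called under every alternative tried. The comparisons share libraries, so they do not support each other. MpVg00590 gave -0.85 for Mpdes6fad5 minus Tak-1 and -0.72 for Mpdes6fad5 minus Mpcoi1, but it passed the filter only through its mock Mpdes6fad5 libraries, so these values are descriptions without a test.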

How the results depend on the processing

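Of 84 calls of V genes over 9 comparisons, 50 were kept under every alternative that gave a value. For the named genes, 954 of 1011 values under alternatives kept their direction and their side of the threshold, 56 lost the call and 1 reversed: MpVg00590 in the response of Mpdes6fad5 minus that of Mpcoi1, at 0.40 with voom on recovered reads. Leaving out a library of a group outside the comparison cannot change the log2 difference. Many of the 954 were such fits, so this count does not measure how firm the calls are. The cause of the changes below was not tested.

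The number of V genes called after wounding was 18 with quantile normalization and 16 with library totals in Tak-1, and 17 with quantile normalization in Mpcoi1. In mock plants it was 20 with library totals and 6 with a mean of at least 5 CPM (27 V genes tested) for Mpdes6fad5 against Mpcoi1, and 1 with library totals for Mpcoi1 against Tak-1. For differences of response it was 2 with a constant of 5 CPM, 2 without a filter and 3 with quantile normalization for Mpcoi1 minus Tak-1, 2 with voom for Mpdes6fad5 minus Tak-1, and 8 with median-of-ratios and 8 with quantile normalization for Mpdes6fad5 minus Mpcoi1.

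Leaving out 1 library gave 20 to 25, 7 to 12 and 7 to 11 calls after wounding in Mpdes6fad5, Mpcoi1 and Tak-1. In mock plants it gave 12 to 19 for Mpdes6fad5 against Tak-1, 8 to 15 for Mpdes6fad5 against Mpcoi1 and 1 to 4 for Mpcoi1 against Tak-1. For differences of response it gave 2 to 7 for Mpdes6fad5 minus Tak-1, 3 to 6 for Mpdes6fad5 minus Mpcoi1 and 0 to 3 for Mpcoi1 minus Tak-1.

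Deviations from the group means were correlated between libraries of different groups. The 45 same-numbered pairs had a median correlation of -0.009 and a highest of 0.56, with 10 over 0.1. The 90 pairs with different numbers had a median of -0.001 and a highest of 0.46, with 20 over 0.1. Most of these pairs cross genotypes, so these values cannot exclude pairing of mock and wounded plants within a genotype. With the replicate block, 3 V genes were called for Mpdes6fad5 minus Tak-1 in response, against 4 without it, and the other 8 counts did not change. Genes near 1 CPM rest on few reads, and their log2 differences depend on the constant.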
